A study of Mus musculus with 9 samples.

Results

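The nucleotides described here are the adenines of conserved mouse 5′ untranslated regions whose neighbours on both sides are G or C. Every A of the deposited table was taken whose preceding and following nucleotides were both read in the same amplicon and were both G or C. There were 2431 such readings among 6840 readings of A (35.5%) and 32967 readings of all 4 bases. They fell at 2058 distinct positions, in 161 of 161 amplicons and 69 of 69 transcripts, with 5 to 31 per amplicon (median 15). By neighbours they were 806 GAG, 757 CAG, 465 GAC and 403 CAC, where the A is the middle letter. The choice used the sequence alone and no measured value. Of the remaining A, 4349 had another base on at least 1 side, and 60 stood at the end of an amplicon with no neighbour read on 1 side.

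The study probed RNA structure in E14 mouse embryonic stem cells (genotype E14TG2a) with dimethyl sulfate (DMS), followed by sequencing of cDNA amplicons. There were 3 groups of 3 samples. Untreated cells received DMS at 1.6%, buffered by bicine at 250 mM, and were held at 37 °C with it for 6 min. ATP-depleted cells were first kept for 10 min without glucose in 10 mM 2-deoxyglucose and 10 mM sodium azide, both of which stayed in the media, and were then exposed to DMS in the same way. In the group labelled in vitro refolded, the RNA was folded outside cells, and the sources used here do not give its folding or DMS conditions. According to the labels, the 3 samples of a condition were independent. All 9 samples came from this 1 line. The data hold positions in transcripts and no expression levels, so the cell type could not be checked against marker genes. DMS-free samples were not analysed here, which leaves the background at a nucleotide unmeasured.

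DMS adds a methyl group to the base-pairing face of A and C, and a base that is held in a Watson-Crick pair is largely protected. In mutational profiling the methylated base is read through by the reverse transcriptase with an error, so the number of errors at a position reports how open that base was. The sequence around a base matters as well, since G and C neighbours form the strongest pairs and flanking bases stack on the probed one. Structure in 5′ untranslated regions is known to slow or redirect the scanning ribosome.

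The deposited values were log2 values in which whole numbers of counts could be recovered for 100% of the entries. A level is given here as reactivity, in counts per 1000000 counts of its amplicon in that sample (CPM). A level is therefore a share of the signal of an amplicon and not a mutation rate, since coverage is not known. Samples held 5743965 to 12616275 counts in all. The nucleotides described here took 13.1 to 15.3% of them, with a median of 342 to 468 counts per nucleotide in cells (6 samples) and of 213, 154 and 307 in vitro (3 samples). In cells 4 to 13 amplicons per sample held under 5000 counts, and in vitro 29, 35 and 19 did. Single nucleotides were compared with limma on log2(CPM + 3196.78), fitted to all 16178 A and C with a count in at least 1 of the 9 samples, and p was adjusted by Benjamini-Hochberg over all of them. All 2431 nucleotides entered the test, 69 of them with no count in at least 1 sample. A nucleotide is called where the adjusted p was under 0.05. A change on this scale is smaller than the plain log2 ratio of the levels, most of all for weak nucleotides.

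A called rise and a called fall in vitro against untreated, among the largest of each combination, are shown first as examples. They were taken from nucleotides whose samples did not overlap between both groups, in the 115 amplicons that held 5000 counts or more throughout (1745 nucleotides); outside this selection there were larger called changes, from -1.97 to 1.74 on the log2 scale. They are named by the transcript position of the A, counted from 1 at the transcript's first base, and the capitals mark the A with its neighbours.
Hipk3 A296, higher in vitro: aaggaagatGAGggagacggg
Hexim1 A387, higher in vitro: gaacccccgGACctgctagtt
Tulp4 A197, higher in vitro: tccagcttaCAGcagaaactt
Ddx17 A822, higher in vitro: cctgagtggCACtgatcctct
E2f3 A307, lower in vitro: cgagaaggaGAGacttggaaa
Hipk3 A383, lower in vitro: cgccagGACaagatggca
Taok2 A496, lower in vitro: ctcggacccCAGccttagagg
Brd2 A1625, lower in vitro: ccttcccccCACttcccgggt

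The 4 combinations had similar levels, and GAG was the highest in each of the 9 samples. The median GAG reactivity was 9790, 9011 and 10153 CPM in the untreated samples, 9701, 8951 and 9824 CPM after ATP depletion, and 10692, 10432 and 10824 CPM in vitro. The in vitro values lay above all 6 in-cell values. The median CAC reactivity was 8457, 7852 and 8514 CPM in the untreated samples, 8434, 7725 and 8105 CPM after ATP depletion, and 9013, 8507 and 9515 CPM in vitro. For CAC the lowest in vitro sample lay below the highest untreated one. In untreated cells GAC stood at 8506 ± 289 CPM and CAG at 8663 ± 399 CPM (SD, n = 3 each), and their samples overlapped with each other and with CAC. Within each untreated sample CAG was above CAC, by a ratio of 1.05 ± 0.0074 (SD, n = 3). In vitro GAC stood at 9657 ± 306 CPM and CAG at 9151 ± 312 CPM (SD, n = 3 each).

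The ratio of GAG to CAC within a sample was 1.17 ± 0.034 after ATP depletion, 1.17 ± 0.024 in untreated cells and 1.18 ± 0.044 in vitro (SD, n = 3 each). Part of that ratio came from 1 gene. Srgap2 carries a CA repeat and held 49 of the 403 CAC readings, with a median of 4389 ± 108 CPM in untreated cells (SD, n = 3). CAC outside Srgap2 had 8716 ± 331 CPM there (SD, n = 3), and the ratio without that gene was 1.11 in each of the 3 groups. GAG then still had the highest level, and CAC no longer the lowest.

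All 4 combinations pooled had a median of 8865 ± 410 CPM in untreated cells, 8662 ± 348 CPM after ATP depletion and 9649 ± 229 CPM in vitro (SD, n = 3 each). The other A had 8449 ± 423, 8359 ± 393 and 9133 ± 181 CPM in the same order (SD, n = 3 each). The ratio between both classes was 1.05 ± 0.012 in untreated cells, 1.04 ± 0.0096 after ATP depletion and 1.06 ± 0.015 in vitro (SD, n = 3 each). The classes were spread differently over the amplicons, whose G and C content had a median of 59.1% for A between G or C and 49.8% for the other A. Set against the median A of its own amplicon and sample, the median A between G or C stood at 0.995 ± 0.0072 in untreated cells, 0.985 ± 0.0034 after ATP depletion and 1 in each in vitro sample. On that scale GAG stood at 1.03 ± 0.0081 in untreated cells and at 1.05 ± 0.02 in vitro, GAC at 0.966 ± 0.005 there and 0.998 ± 0.024 in vitro, CAG at 0.982 ± 0.021 and 0.961 ± 0.023, and CAC at 0.988 ± 0.01 and 0.988 ± 0.01 (SD, n = 3 each). The CPM of the other A was higher in vitro as well, while the median of all C was 4829 ± 48.3 CPM in untreated cells and 4114 ± 53.5 CPM in vitro (SD, n = 3 each).

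Levels differed more between nucleotides in vitro. The 90th percentile over the 10th percentile of the A between G or C was 4.26, 3.6 and 3.69 in untreated samples, 4.6, 3.62 and 4 after ATP depletion, and 7.04, 7.54 and 5.12 in vitro. All 3 in vitro values exceeded all in-cell values. This did not hold for GAC alone, where the lowest in vitro value was 4.36 and the highest untreated one 4.75. The 10th percentile was 3910 CPM in untreated cells and 3120 CPM in vitro, and the 90th 15011 and 20058 CPM (means of 3 samples). The ratio in vitro was 6.84 ± 1.27 for GAG, 6.72 ± 1.51 for CAG, 6.67 ± 1.44 for CAC and 5.39 ± 0.905 for GAC (SD, n = 3 each), and 5.46 ± 1.09 for the other A. Noise between replicates was larger in vitro as well: the median SD of a nucleotide on the log2 scale was 0.23 there, 0.16 in untreated cells and 0.14 after ATP depletion. Over these 2431 nucleotides, which share libraries and depth, the correlation between replicates was 0.629 to 0.710 in vitro and 0.743 to 0.830 in cells. The part of the lower depth in the wider spread was not tested.

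**Figure D1:**
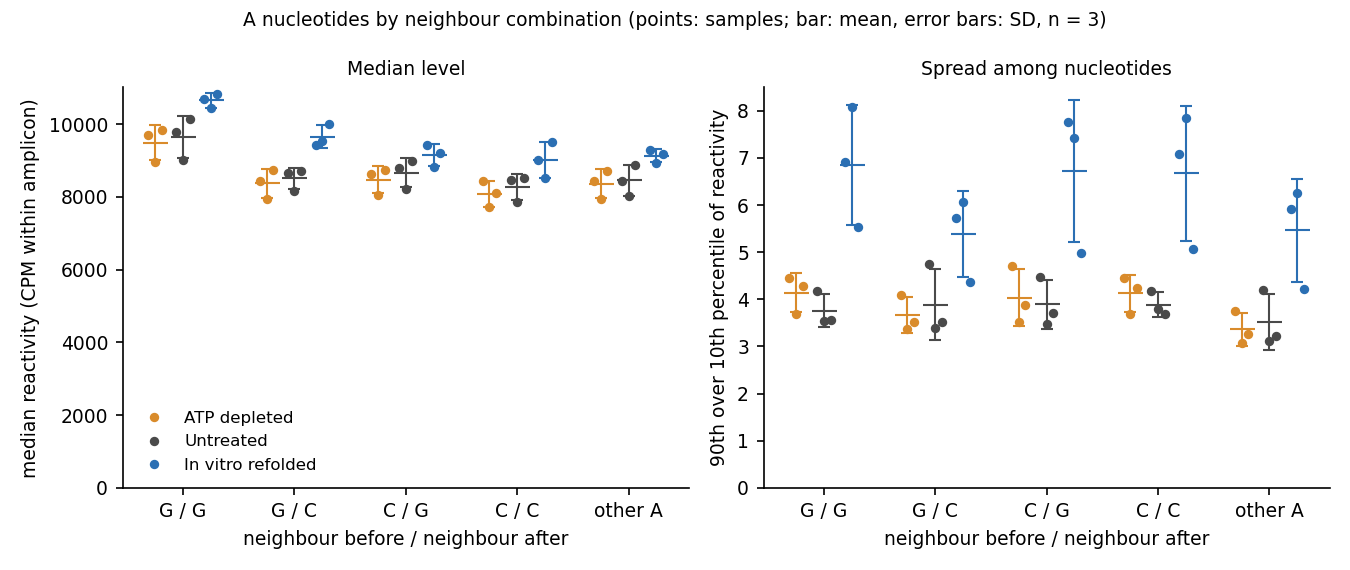
Median reactivity in CPM (left) and the 90th over the 10th percentile of reactivity (right) of A by its neighbours before and after, with each sample as a point and the mean with SD of 3 samples as a bar. G on both sides has the highest median in each sample. Over the 4 combinations together, which is not drawn, the spread is 5.12 to 7.54 in vitro against 3.6 to 4.6 in cells. For GAC the points overlap, at 4.36 to 6.07 in vitro and 3.38 to 4.75 in cells.

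Against untreated cells, more A between G or C were higher in vitro than lower. limma called 411 of 2431 (16.9%; Benjamini-Hochberg adjusted p under 0.05), against 16.3% of all A and C tested. Of these 300 were higher in vitro (12.3%), where 8.08% of all A and C were, and 111 were lower (4.57%), where 8.18% were. The median log2 change was 0.12, against 0.00 over all A and C tested and 0.09 over the other A. Of the other A, 374 of 4345 were higher (8.61%) and 165 lower (3.8%). When each nucleotide was divided by the mean of its amplicon, 199 were higher (8.19%, against 5.38% of all A and C in that fit) and 153 lower (6.29%, against 10.5%), and the median change was 0.03, against -0.07 over all A and C. Rises were 73% of the calls without that division and 56.5% with it.

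The count of 411 depended on the untreated samples, as did that over all A and C. It was 231 without untreated replicate 1 (9.5%, against 10.9% of all A and C), 195 without replicate 2 (8.02%, against 8.62%) and 224 without replicate 3 (9.21%, against 9.35%). Leaving out any other sample gave 302 to 377. The fit of the 6 compared samples alone called 180 (7.4%, against 8.23%).

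GAG had the highest share of rises among the combinations, at 14.6%, and also the highest share of falls, at 5.46%. CAG had 11.5% and 5.28%, GAC 12% and 3.44%, and CAC 9.68% and 2.73%. Over all A and C tested, 8.08% rose and 8.18% fell. By combination, 118 GAG were higher and 44 lower (20.1% called), 87 CAG higher and 40 lower (16.8%), 56 GAC higher and 16 lower (15.5%), and 39 CAC higher and 11 lower (12.4%). The median log2 changes were 0.17 for GAC, 0.14 for GAG, 0.11 for CAC and 0.09 for CAG. The difference between combinations was not tested. The nucleotides called higher had a median of 9840 CPM in untreated cells and 16750 CPM in vitro, and those called lower 8955 and 3888 CPM. In amplicons with under 5000 counts in some sample lay 35 of the 111 falls and 30 of the 300 rises. Of the 2020 nucleotides that were not called, 621 lay there, so rises were the class with few members in these amplicons.

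**Figure D2:**
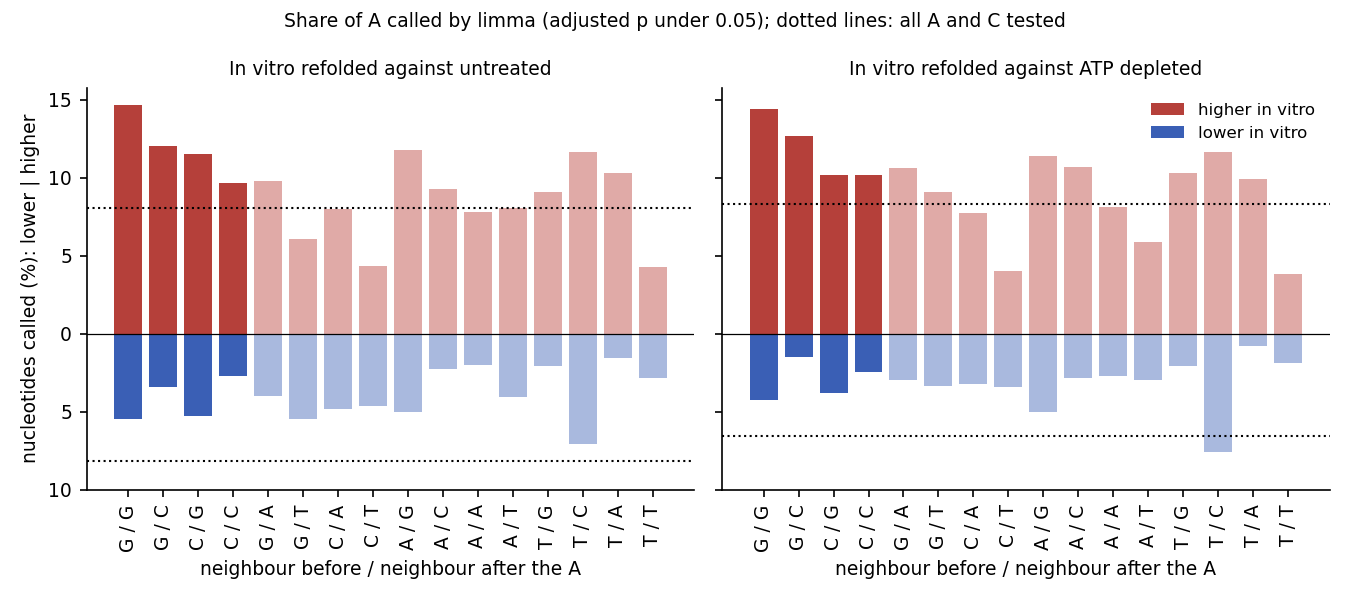
Percent of A called by limma at an adjusted p under 0.05 for each pair of neighbours, rises upward and falls downward, in vitro refolded against untreated (left) and against ATP depleted (right), with dotted lines at the percent of all A and C tested. The first 4 bars, in dark colours, are the A between G or C, and their rises exceed the dotted line at 8.08% (left) and 8.31% (right) in each combination.

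Among GAG, the rise in Hipk3, a homeodomain-interacting protein kinase, was at A296 (amplicon 141 to 391). Its reactivity was 17576, 12042 and 17841 CPM in untreated samples, 28748, 18291 and 26244 CPM after ATP depletion, and 40130, 52951 and 41985 CPM in vitro. The in vitro values exceeded all 6 others, with a log2 change against untreated of 1.35 (SE 0.2, limma Benjamini-Hochberg adjusted p = 0.00417). The ATP-depleted values all lay above the untreated ones, by 0.53 (SE 0.2), with a limma adjusted p of 1.00 and an unadjusted p of 0.0253. Eif5 encodes the GTPase-activating protein of the initiation factor eIF2. At its A334 (amplicon 116 to 366), the untreated samples had 10484, 10401 and 12220 CPM, the ATP-depleted ones 11917, 10356 and 11614 CPM and the in vitro ones 32154, 31346 and 30504 CPM. The in-cell groups overlapped and the in vitro samples stood apart, with a log2 difference of 1.28 (SE 0.095; adjusted p = 0.00033 by limma) on 1711 to 6724 counts per sample.

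The GAG falls rested on fewer counts. E2f3 encodes a cell-cycle transcription factor, and its A307 (amplicon 183 to 433) had 13066, 7428 and 7213 CPM in untreated samples, 4465, 7823 and 5680 CPM after ATP depletion and 3065, 525 and 2673 CPM in vitro. The in vitro values were below all others, at a log2 difference of -1.24 (SE 0.26; adjusted p = 0.0154 by limma), on as few as 4 counts in a sample. Mbnl1 encodes a splicing regulator. Its A726 (amplicon 613 to 863) had 9993, 6992 and 7388 CPM in untreated samples, 7033, 8641 and 7887 CPM after ATP depletion and 1064, 1426 and 3999 CPM in vitro. The fall was -1.11 on the log2 scale (SE 0.2, limma adjusted p = 0.00968), again with no overlap between in vitro and in-cell samples.

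Among GAC, Hexim1, the inhibitor of the elongation kinase P-TEFb, rose at A387 (amplicon 219 to 469). Untreated samples had 5723, 6652 and 6215 CPM, ATP-depleted ones 7009, 5229 and 5709 CPM, and in vitro ones 20340, 18458 and 18288 CPM. The in vitro samples stood clear of the overlapping in-cell groups, at a log2 difference of 1.24 (SE 0.11; adjusted p = 0.00061 by limma). The C that follows this A had 4759 CPM in untreated cells and 3127 CPM in vitro (-0.33, limma adjusted p = 0.068) and was not called. Zc3h6, a zinc finger protein gene, had 7585, 9319 and 5633 CPM at A368 (amplicon 219 to 469) in untreated samples, 11731, 8503 and 11492 CPM after ATP depletion and 23176, 18029 and 19657 CPM in vitro. The change was 1.14 (SE 0.16, limma adjusted p = 0.00392). In the overlapping amplicon 183 to 433 the same A gave 0.39 and was not called (limma adjusted p = 0.169).

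Neither GAC fall was called in the second amplicon that read it. Hipk3 A383 (amplicon 352 to 602) had 11700, 9338 and 12090 CPM in untreated samples, 8728, 9196 and 6259 CPM after ATP depletion and 1344, 6994 and 4520 CPM in vitro, which is a log2 difference of -0.9996 (SE 0.27; adjusted p = 0.0402 by limma). The amplicon 351 to 601, shifted by 1 base, gave -0.18 (limma adjusted p = 0.361), and the call was kept in 8 of 19 alternative settings. Srgap2 A298 (amplicon 196 to 446) had 11336, 7237 and 5692 CPM in untreated samples, 8717, 6455 and 8089 CPM after ATP depletion and 2295, 2353 and 2961 CPM in vitro. Its change was -0.95 (SE 0.18, limma adjusted p = 0.0114), and the amplicon 68 to 318 gave 0.03 (limma adjusted p = 0.9).

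Among CAG, Tulp4, a tubby-like protein gene, had 2161, 3327 and 1740 CPM at A197 (amplicon 131 to 381) in untreated samples, 2288, 2618 and 2126 CPM after ATP depletion and 7611, 12249 and 7928 CPM in vitro. Its change was 1.14 (SE 0.16, limma adjusted p = 0.00393), and the amplicon 0 to 250 also called a rise, of 0.68 (limma adjusted p = 0.0108).

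The CAG falls were in Taok2, a protein kinase gene, and Ext1, a heparan sulfate polymerase gene. Taok2 A496 (amplicon 440 to 690) had 18286, 9574 and 15388 CPM in untreated samples, 6843, 9925 and 11647 CPM after ATP depletion and 1344, 2226 and 7230 CPM in vitro. The change was -1.44 (SE 0.33, limma adjusted p = 0.0223), kept as a call in 15 of 20 alternative settings, and the amplicon 375 to 625 gave -0.63 (limma adjusted p = 0.0509). Ext1 A220 (amplicon 2 to 252) had 12525, 12846 and 12231 CPM in untreated samples, 13537, 11402 and 12774 CPM after ATP depletion and 3456, 3439 and 5462 CPM in vitro. This was the tightest of the falls, with a log2 difference of -1.12 (SE 0.13; adjusted p = 0.0015 by limma), while the C before it had 5185 and 6127 CPM (0.16, limma adjusted p = 0.639).

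Among CAC, both named rises lay in Ddx17, a DEAD-box RNA helicase gene. A822 (amplicon 731 to 981) had 1498, 1655 and 1189 CPM in untreated samples, 1656, 1337 and 1182 CPM after ATP depletion and 9003, 11041 and 7556 CPM in vitro. A783 of the same amplicon had 1555, 1765 and 2606 CPM, 1939, 1619 and 2049 CPM, and 11277, 10384 and 8597 CPM in the same order. Both were weak in cells and strong in vitro, with log2 changes of 1.41 (SE 0.12, limma adjusted p = 0.00063) and 1.36 (SE 0.12, limma adjusted p = 0.00065). The amplicon 639 to 889 called both as well, at 1.03 (limma adjusted p = 0.00074) and 1.27 (limma adjusted p = 0.00019). The C on each side of these A rose too: at A822 by 1.83 before and 0.95 after, and at A783 by 1.69 before and 1.32 after, with limma adjusted p between 0.00019 and 0.0027. In Ddx17 as a whole 17 of 51 A between G or C were higher and 4 lower, beside 40.7% of its A and C called.

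The CAC falls were both in Brd2, which encodes a bromodomain protein that binds acetylated histones. A1625 (amplicon 1433 to 1683) had 4675, 3834 and 5681 CPM in untreated samples, 4889, 4969 and 5237 CPM after ATP depletion and 1665, 307 and 1343 CPM in vitro. The change was -0.89 (SE 0.14, limma adjusted p = 0.00615), with the flanking C falling by 0.62 before and by 0.94 after, and the amplicon 1524 to 1774 gave -0.35 (limma adjusted p = 0.126). A673 (amplicon 604 to 854) had 11139, 8643 and 13156 CPM in untreated samples, 11914, 9693 and 9127 CPM after ATP depletion and 6873, 2388 and 6077 CPM in vitro. Its change of -0.80 (SE 0.23, limma adjusted p = 0.0484) was kept as a call in 7 of 21 alternative settings.

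**Figure D3:**
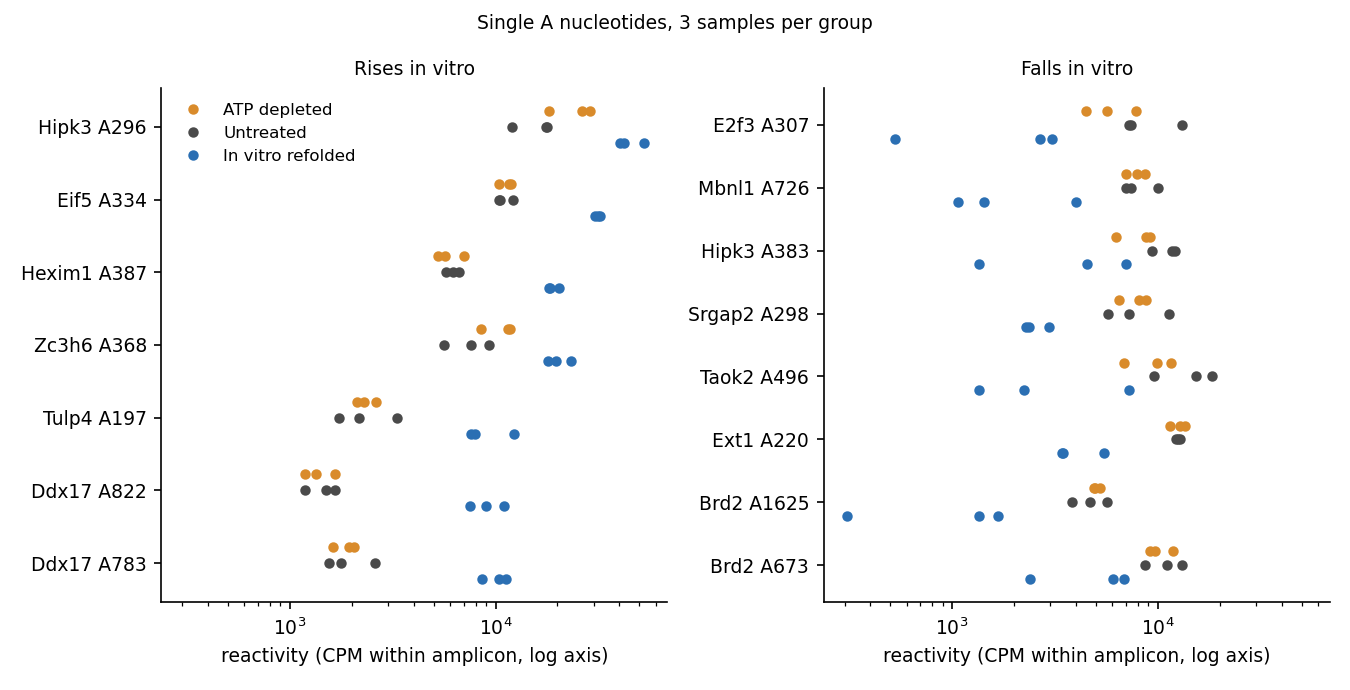
Reactivity in CPM, on a log axis, of the A named for large rises (left) and large falls (right) in vitro, with 3 points per group. In each row the in vitro points do not overlap the untreated points, which the rule of choice required. The in vitro points are widely scattered in some falls, as in Brd2 A1625 at 307 to 1665 CPM. In Srgap2 A298 they are tighter, at 2295 to 2961 CPM, than the untreated points, at 5692 to 11336 CPM.

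The C next to a called A changed in the same direction more often than not, and more clearly next to falls than next to rises. Called falls of an A had 78 tested C next to them, of which 65 had a change below 0, 33 were called lower and 1 higher. Next to called rises there were 221 C, of which 132 had a change above 0, 50 were called higher and 26 lower. Next to A that were not called, 788 of 1725 C had a change above 0, 124 were called higher and 162 lower. Over all C tested 6.7% were called higher and 11.2% lower. An A and its flanking C share the amplicon and its libraries. The level of a C also depended on its side: in untreated cells the C after the A had a median of 7280 ± 74 CPM in GAC and 8494 ± 36.9 CPM in CAC, and the C before it 5566 ± 80.6 CPM in CAG and 5306 ± 19.5 CPM in CAC (SD, n = 3 each). The flanking G, which DMS marks at a face that does not report pairing, had medians of 906 to 1004 CPM.

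Overlapping amplicons gave a second measurement of the same RNA samples at 373 positions. Of these, 36 were called in both amplicons, with the same direction in 36, and 70 were called in 1, with the same sign in the other in 62. Over the 373 positions, which share samples but not primers, the log2 changes of both readings correlated at r = 0.546, and at 0.684 for the 113 GAG.

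Against ATP-depleted cells rises in vitro also outnumbered falls. Both comparisons share the in vitro samples, so they are given side by side and not set against each other. limma called 373 of 2431 (15.3%), where 14.9% of all A and C were called. Of these 293 were higher in vitro (12.1%, against 8.31% of all A and C) and 80 lower (3.29%, against 6.56%), with a median log2 change of 0.13 against 0.03 over all A and C. By combination 116 GAG were higher and 34 lower, 77 CAG higher and 29 lower, 59 GAC higher and 7 lower, and 41 CAC higher and 10 lower. After division by the amplicon's mean 172 were higher (7.08%, against 5.11% of all A and C) and 128 lower (5.27%, against 9.24%). Rises were then 57.3% of the calls in place of 78.6%, and the median change was 0.02, against -0.07 over all A and C. The count was 195 without ATP-depleted replicate 1 (8.02%, against 8.47% of all A and C), 121 without replicate 2 (4.98%, against 6.22%) and 178 without replicate 3 (7.32%, against 7.7%), and 286 to 371 without any other sample. The rises named above were each called here too (limma adjusted p 0.00043 to 0.0278). Of the 8 falls, 4 were called: Mbnl1 A726, Srgap2 A298, Ext1 A220 and Brd2 A1625.

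Setting ATP-depleted against untreated cells asks whether the openness of these bases depends on cellular energy. limma called 0 of 2431, as it called 0 of 16178 A and C (0%). At an unadjusted p under 0.05 there were 69 (2.84%), against 3.93% of all A and C. The median log2 change was -0.02, against -0.03 over all A and C, and 80% of the changes lay between -0.27 and 0.22. By combination 24 GAG, 23 CAG, 15 GAC and 7 CAC had an unadjusted p under 0.05. The median standard error of a change was 0.17. The fit of these 6 samples alone gave 138 nucleotides at an unadjusted p under 0.05 and called none.

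The rise and the fall with the smallest unadjusted p were both GAG. Taok2 A470 (amplicon 440 to 690) had 7998, 7946 and 6734 CPM in untreated samples and 17156, 10520 and 11617 CPM after ATP depletion, with no overlap, and 8714, 7436 and 8999 CPM in vitro. The change was 0.58 (SE 0.16, unadjusted p = 0.0054, limma adjusted p = 1.00). Ddx17 A761 (amplicon 639 to 889) had 8740, 8374 and 8666 CPM in untreated samples, 5968, 5812 and 6072 CPM after ATP depletion and 7590, 7490 and 7328 CPM in vitro. The groups did not overlap, yet the change of -0.37 (SE 0.08, unadjusted p = 0.0016) had a limma adjusted p of 1.00.

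The extremes of the untreated levels are described for the 115 well-covered amplicons alone; in the others the levels ran further, up to 82350 CPM among GAG. The highest untreated GAG there was A102 of Kmt2e, a chromatin regulator gene (tgcgttcggGAGcggcagcag), at 55717 ± 221 CPM in untreated cells, 68222 ± 6502 CPM after ATP depletion and 94072 ± 7473 CPM in vitro (SD, n = 3 each). In vitro it rose by 0.72 (SE 0.1, limma adjusted p = 0.00417). The highest CAG was A121 of Chd2, a chromatin remodeller gene (gggcccccgCAGccccctgcc), at 27171 ± 710.4 CPM, and the highest GAC A652 of Taok2 at 25236 ± 3165 CPM (SD, n = 3 each, untreated). Of these, Chd2 A121 was called higher in vitro, by 0.33 in both of its amplicons (limma adjusted p = 0.0366 and 0.038). The Taok2 nucleotide overlapped between untreated and in vitro samples and was not called (limma adjusted p = 0.424).

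At the other end, A113 of Ptp4a2, a tyrosine phosphatase gene (cccagtcccCAGcttgccagc), had 1 to 4 counts per sample in an amplicon whose smallest library held 107298. Its levels were 5.89 to 13.3 CPM in untreated samples and 11.3 to 28.4 CPM in vitro, and the G that follows it had 2.1 CPM in untreated cells. The lowest GAG was A553 of Rbm10, an RNA-binding splicing factor gene, at 355, 63.8 and 176 CPM in untreated samples, on 0 to 24 counts over the 9 samples, with its flanking G at 36 and 61.1 CPM. The lowest CAC reading was A227 at the start of the Srgap2 stretch read in amplicon 196 to 446, at 202, 152 and 220 CPM, next to C at 33671 and 17981 CPM. The amplicon 68 to 318 read the same A at 5313, 4359 and 4265 CPM in untreated samples, so the low value belongs to 1 of its 2 readings. The lowest GAC was A1137 of Brd2, at 954, 1395 and 1815 CPM in untreated samples and 1131, 3408 and 1548 CPM in vitro. It belongs to the sequence group described next.

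The bases beyond the immediate neighbours also went with the level. Among the 64 possible 5-base contexts, each with 7 to 113 readings, the untreated median relative to the amplicon's median A ran from 0.534 to 1.23. The lowest was GGACT, the core of the best-known consensus for N6-methyladenosine in messenger RNA, which was searched on the transcript strand alone and made up 0.102% of all 5-base windows read. Whether any of these A carried that modification was not measured. There were 33 GGACT readings at 30 positions in 20 genes, and 29 of the 33 lay below their amplicon's median A in untreated cells. The motif was singled out after its values were seen. Of the sites with low levels 5 are shown here, with the A and its neighbours in capitals.
Brd2 A1137: ttggaaatgGACttcgtcccg
Ext1 A742: aagatggcgGACtggagctga
Ddx6 A67: cggtggtagGACtcgggcccg
Nfe2l1 A349: gagcgcctgGACtgtgttagg
Hexim1 A272: aacccattgGACttaaacctc

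The GGACT median was 4423, 4064 and 5121 CPM in the untreated samples and 5605 ± 201 CPM in vitro, against 8804 ± 384 and 9932 ± 258 CPM for the 425 other GAC with both outer bases read (SD, n = 3 each). After ATP depletion it was 4508 ± 440.5 CPM (SD, n = 3). The relative level was 0.534 ± 0.052 in untreated cells, 0.502 ± 0.06 after ATP depletion and 0.606 ± 0.072 in vitro, so GGACT was low in all 3 groups (SD, n = 3 each). Single sites ran from 1388 CPM in Brd2 to 10599 CPM in Ehbp1 in untreated cells, the latter in an amplicon whose smallest library held 3277 counts. Ext1 A742 was read in 2 amplicons, at 1669 ± 105 and 2228 ± 355 CPM (untreated; SD, n = 3 each), and both readings were called higher in vitro, by 0.40 and 0.43 (limma adjusted p = 0.0299 and 0.0372). In vitro 4 of the 33 readings were called higher and 1 lower. In the 24 readings from well-covered amplicons the relative level in untreated cells was 0.446 ± 0.072 (SD, n = 3). Among A that the predicted fold left unpaired with a probability of 0.5 or more, 19 GGACT readings had 6024 ± 970 CPM and 254 other GAC 9539 ± 543 CPM (untreated; SD, n = 3 each).

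The next lowest context, ACACA, had a relative level of 0.687 ± 0.029 in untreated cells (SD, n = 3) over 49 readings. Of these 33 lay in Srgap2, and all 33 were below their amplicon's median A, at a median of 3789 ± 206 CPM in untreated cells and 4310 ± 367 CPM in vitro. The 16 readings in 12 other genes had 6935 ± 163 CPM in untreated cells, with a relative level of 0.871 ± 0.04 (SD, n = 3 each). Most ACACA readings, and the lowest levels among them, were thus those of 1 gene.

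**Figure D4:**
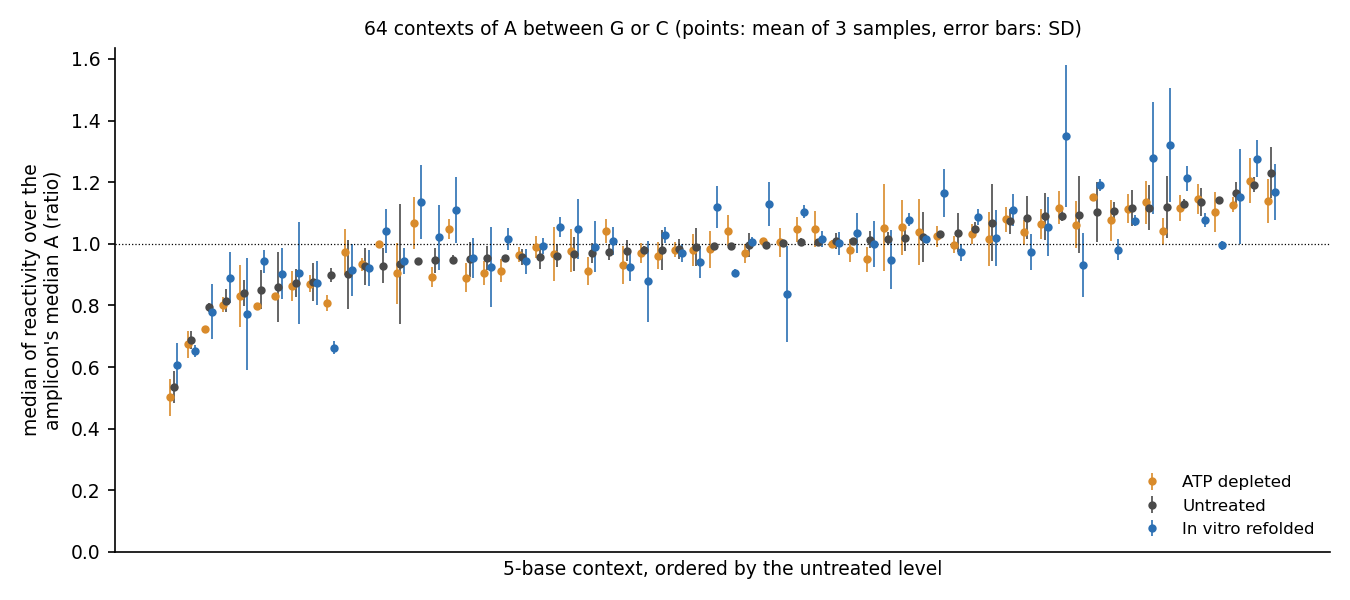
Reactivity relative to the median A of the same amplicon and sample, as the median over the readings of each of the 64 contexts of 5 bases, with the mean and SD of 3 samples per group and the contexts ordered by their untreated level. The leftmost context is GGACT, at 0.534 in untreated cells, 0.502 after ATP depletion and 0.606 in vitro.

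The composition around the A went with its level. Where the 21 bases around it held under 50% G and C, the untreated median was 7590 ± 285 CPM (657 readings), and where they held 80% or more it was 10911 ± 519.6 CPM (267 readings; SD, n = 3 each). Relative to the amplicon's median A the lower class stood at 0.943 in cells without treatment and at 0.917 in vitro, and the upper class at 1.05 and 1.12. Levels differed less with position in the transcript: the untreated median was 8658 CPM in the first 200 bases and 9249.7 CPM beyond base 800. The share called in vitro against untreated was 15.8% in the lowest class of G and C content and 20.2% in the highest, beside 16.3% of all A and C tested. The share of all A and C within these classes was not computed, so whether the difference is particular to these A was not tested.

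Predicted pairing was set beside the levels. The stretch of each amplicon that was read was folded with ViennaRNA, without any use of the reactivities, and gave each A a probability of being unpaired. Of the A between G or C, 751 (30.9%) had a probability of 0.9 or more and 534 (22%) of 0.1 or less, while for the other A these shares were 40.1% and 11.9%. The unpaired class had a higher median level in each sample: the ratio of unpaired to paired was 1.59, 1.45 and 1.51 in untreated samples, 1.61, 1.5 and 1.5 after ATP depletion, and 1.7, 1.68 and 1.69 in vitro. The ratio was higher in each in vitro sample than in any in-cell sample. A wider contrast in vitro was not particular to these A. The other A had 9055 CPM unpaired and 6412 CPM paired in untreated cells, and 10256 and 5977 CPM in vitro. All C had 6882 and 3477 CPM in untreated cells, and 6953 and 2392 CPM in vitro (means of 3 samples). Among the combinations, CAG had the highest ratio in vitro, at 2.07 ± 0.083 against 1.63 ± 0.18 in untreated cells (SD, n = 3 each). GAG had 1.87 ± 0.037 against 1.64 ± 0.043 (SD, n = 3 each). For GAC and CAC the groups overlapped, at 1.41 ± 0.19 against 1.44 ± 0.027 and 1.34 ± 0.11 against 1.33 ± 0.027. The unpaired class of CAC held 174 readings. The 49 CAC readings of Srgap2 had a median unpaired probability of 0.991 and a median of 4389 CPM in untreated cells. The CAC ratio without that gene was not computed.

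Calls were spread over both predicted classes. In the unpaired class of GAG 22.5% were called higher in vitro and 6.42% lower, and in the paired class 9.78% and 6.22%. In the paired class of CAG 9.09% were called higher and as many lower, and its median was 6529 ± 383 CPM in untreated cells and 5767 ± 346 CPM in vitro (SD, n = 3 each). For GAC 12.7% of the unpaired and 15.7% of the paired class were called higher, and for CAC 7.47% and 12%. Of the other A, 9.51% of the unpaired class were called higher and 2.41% lower, and 6.74% and 9.06% of the paired class. For all C these shares were 9.7% and 6.81% in the unpaired class and 5.21% and 14.2% in the paired class. The named rises included A predicted to be paired, with unpaired probabilities under 0.1 for Eif5 A334 and both Ddx17 nucleotides, and A predicted to be open, above 0.9 for Hipk3 A296 and Tulp4 A197.

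**Figure D5:**
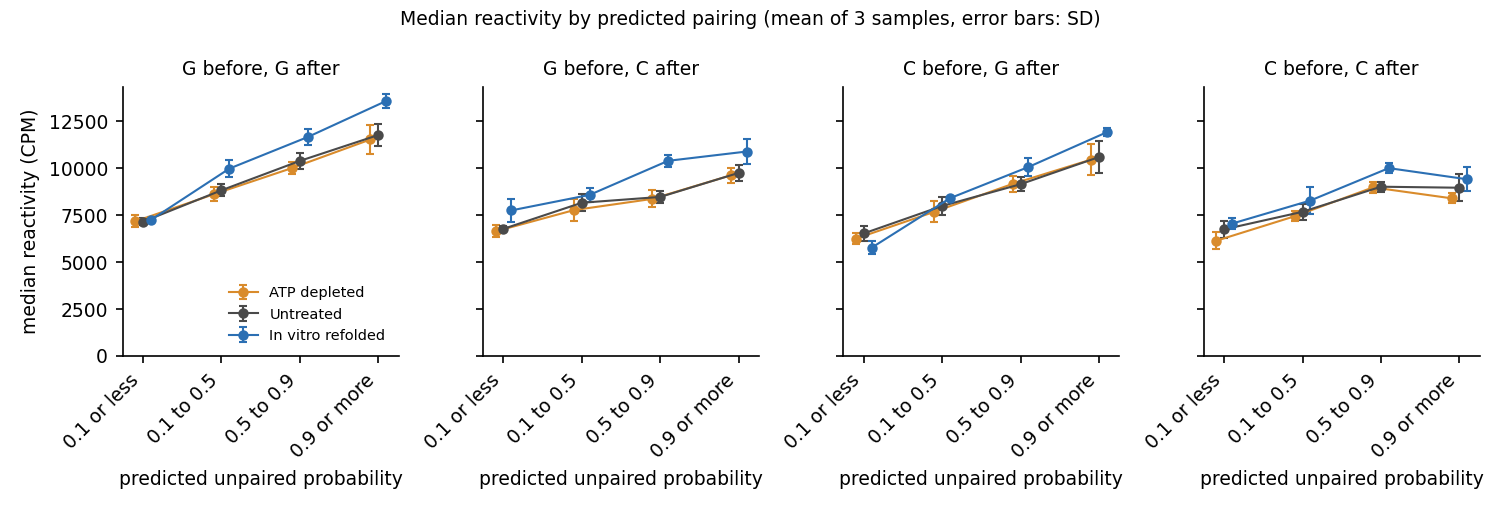
Median reactivity in CPM of the A in each neighbour combination, by class of predicted unpaired probability, as the mean and SD of 3 samples per group. With G before and after the A, the in vitro median is 7248 CPM in the most paired class and 13584 CPM in the most open one, against 7153 and 11771 CPM in untreated cells.

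Among genes, 63 of 69 had at least 1 called A between G or C in vitro against untreated, 55 had a higher one and 46 a lower one. Over all tested A and C, each of the 69 genes held at least 2 calls. In 44 genes rises outnumbered falls and in 14 falls outnumbered rises. Ctcf, which encodes the insulator-binding factor, had 19 of 43 higher and none lower, with a median change of 0.29, beside 31.2% of all its tested A and C called. Kmt2e had 12 of 53 higher and 1 lower, with a median change of 0.32, beside 21.3% of its A and C called. Brd2 had 23 of 102 higher and 3 lower, beside 20.6%. Rarg, the retinoic acid receptor gamma gene, had 0 of 29 higher and 4 lower, with a median change of -0.30, beside 13.7% of its A and C called, in an amplicon whose smallest library held 458 counts. The 6 genes with no called A between G or C were Bcl2, N4bp2, Nlk, Ppp2r5e, Tek and the transcript NM177047, which had no symbol in the reference table.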

How the data were processed

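The data were 1 table of mutation signal per nucleotide in 9 samples, grouped by their titles. Per the submitters' processing notes, the tools were bcl2fastq, Bowtie2 and limma; the sources used here do not give versions, mutation counter or build. The authors deposited log2 values per nucleotide and sample, already scaled within each amplicon and sample. They equalled the log2 of a whole count plus 0.5, times a factor per library, for 100% of the values of 1449 libraries at a tolerance of 0.001. Counts come from amplified cDNA, so the true error is at least the counting error.

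Reactivity was 2 raised to the deposited value. The fit, with limma 3.58.1 (R 4.3.3), used log2(CPM + 3196.78), the pseudocount being 0.5 times the pooled median of A and C (6393.56), with group means, 2-sided tests and Benjamini-Hochberg adjustment over 16178 A and C at 0.05. The fit was tested on simulated data. Folding used ViennaRNA 2.7.2. Of 69 transcripts, 68 had a symbol through RefSeq (GRCm38.p6). In 11 of 11 transcripts that matched RefSeq's sequence, base 1 was the transcript start.

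Named nucleotides were, per combination, the 2 largest rises and falls among calls without overlap between groups in amplicons where each sample held 5000 counts or more, the highest and lowest untreated levels, and for ATP depletion the smallest unadjusted p. Some nucleotides chosen by this rule are not reported here. The members and lists were chosen with earlier results of these data known. Alternatives are given at the end; the omission of Srgap2 was chosen after seeing the data.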

Additional observations from a re-analysis of the deposited data

How the results depend on the processing

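The median change of the A between G or C stayed above 0 in vitro under the alternatives tried. In the amplicon for which it was named, no nucleotide turned direction under the alternatives that could be run for it (19 to 21 each); in its other amplicon Srgap2 A298 gave 0.03, of opposite sign. Against untreated, the median log2 change of 0.12 became 0.15 with a pseudocount of 0.1 times the median, 0.10 with 1 times, 0.16 for nucleotides at or above the pooled median (where all A and C moved to 0.13), 0.16 on the deposited scale, 0.028 after division by the amplicon's mean and 0.14 in amplicons with at least 5000 counts; leaving out 1 replicate gave 0.10 to 0.13. Against ATP depleted, 0.13 became 0.16, 0.10, 0.19 (all A and C at 0.14), 0.16, 0.015 and 0.15 in the same order, and 0.11 to 0.15 without 1 replicate. The called counts of 411 and 373 were 180 and 223 (9.17%, against 9.91% of all A and C) with the 6 compared samples alone, and 195 to 377 and 121 to 371 without 1 replicate. The ratio of GAG to CAC after division by the amplicon's mean was 1.13 after ATP depletion and 1.13 in untreated cells, with 1 reading per position 1.14 and 1.13, and without Srgap2 1.11, 1.11 and 1.11 in vitro. The causes of these shifts were not tested. ATP depleted against untreated gave 0 limma calls in every alternative, with 45 to 138 at an unadjusted p under 0.05.

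Same-numbered replicates correlated at -0.018 to 0.1, not all above 0.1, so the numbers were not taken as pairs, although each ATP-depleted sample correlated best with the untreated sample of its own number (0.031 to 0.1). With the replicate number as a block, 323 and 302 were called in vitro, 304 of them among the 411 and 275 among the 373, and 0 for ATP depletion. The fewest counts per nucleotide were in vitro. The fit of amplicons with at least 5000 counts called 441 of 1745 against untreated (25.3%, against 24.6% of all A and C there).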

Other observations

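T nucleotides of the same amplicons gave a median of 3897 ± 464 CPM in untreated cells, 4270 ± 599 CPM after ATP depletion and 3581 ± 72.5 CPM in vitro (SD, n = 3 each). G nucleotides gave 837 ± 27.5, 867 ± 39.8 and 764 ± 26.5 CPM in the same order.

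A with G or C on 1 side alone are given for comparison, first those followed by T. Against untreated cells these had the lowest shares of rises among A with G or C on 1 side. GAT stood at 0.986 ± 0.0074 of the amplicon's median A in untreated cells and 0.906 ± 0.045 in vitro, and CAT at 0.943 ± 0.04 and 0.885 ± 0.023 (SD, n = 3 each). limma called 20 of 330 GAT higher and 18 lower in vitro against untreated, and 14 of 322 CAT higher and 15 lower (Benjamini-Hochberg adjusted p under 0.05). The share called higher was 11.7% for AAG, 11.6% for TAC, 9.82% for GAA, 9.27% for AAC, 9.09% for TAG and 8.02% for CAA. GAA stood at 1.07 in untreated cells and 1.09 in vitro, and TAG at 1.09 and 1.15. Both were above GAG, at 1.03 and 1.05. In vitro AAG, AAC, TAC and CAA were below GAG, at 1.01 to 1.03. In untreated cells they stood at 1.04, 0.993, 1.03 and 1.03 in that order, so only AAC was clearly below GAG there. The difference between these contexts and GAG, GAC, CAG or CAC was not tested.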
